A study of Mus musculus with 4 samples.

Results

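Syt13, Myo6, Rapgef3, Pdlim4 and Tubb2b are 5 genes, of 19162 tested, with some of the largest ratios of in vitro-derived over thymic CD8+ T cells, and they lie outside the known T cell programs. They were chosen by that ratio, so their in vitro-thymic values are a description, with no test. Every probe whose array name was one of these symbols, or an earlier symbol of the same gene, was taken, which gave 9 probes. None of the 9 was listed under an earlier symbol. In the order of all genes by this ratio, the 5 genes held ranks 3, 5, 8, 13 and 14. Tubb2b, at rank 14, had a log2 difference of 4.43, and Strip2, which was not chosen, followed at rank 15 with 4.40.

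The study compared mouse CD8+ T cells made in culture with CD8+ T cells that had matured in the thymus. All cells came from C57Bl/6 mice, and neither kind was treated further. The in vitro-derived cells were grown from 100000 lineage-negative, Sca1+, CD117+ marrow cells of mice aged 6 to 8 weeks. They were kept for 35 days, with Flt3 at 5 ng/ml and IL7 at 1 ng/ml, on OP9-DL1 cells, a marrow stromal line that carries the Notch ligand Delta-like 1. The thymic cells came from mice aged 4 to 5 weeks, and both kinds were sorted as CD8+ cells with a high T cell receptor beta signal. Whether CD4 was part of the gate, and how many animals made up a prep, is not stated in the labels. RNA of 2 in vitro-derived preps, labelled with Cy5, was hybridised against RNA of 2 thymic preps, labelled with Cy3, in every pairing on 4 arrays. The dyes were not swapped, so a probe's dye effect and a difference between the kinds of cell cannot be told apart.

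The proteins of these genes act in membrane traffic, cell shape and signalling. Syt13 is an atypical synaptotagmin, of a family of membrane proteins best known as sensors and tethers in vesicle fusion. Myo6 is a myosin motor that moves towards the minus end of actin filaments, opposite to other myosins, and carries endocytic and autophagic cargo through adaptors such as Optn, Tax1bp1 and Gipc1. Rapgef3, also called Epac1, is an exchange factor that binds cAMP directly and switches on the small GTPase Rap1, which controls integrin adhesion in lymphocytes. Pdlim4 links proteins to the actin cytoskeleton through a PDZ and a LIM domain. Tubb2b is a beta-tubulin, a building block of microtubules, best known from developing neurons.

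Between 63.7% and 65.6% of the 43379 non-control spots of an array were well above background in the thymic channel, and between 66.5% and 70.9% in the in vitro-derived channel. The 8 CD8 T cell markers listed for this work were above background in both channels on all 4 arrays. Of these 8 markers, 6 were called lower and 1, Lck, higher in the cultured cells (median log2 difference -0.64), where 25.4% and 26.7% of all genes were. With arrays scaled by their median 6 of the 8 were called higher instead. Under that scaling 11847 of all 19162 genes were called higher and 1996 lower. The median of these markers was then 0.42, beside 0.41 for all genes. With the background model fitted on all spots, Lck (adjusted p = 0.0559 in limma) and Cd8b1 (0.0510) lost their calls. Lck also lost its call with the scanner's own corrected signals (adjusted p = 0.0607 in limma). The number of arrays and preps limits the precision, and p-values measure only the spread between these preps.

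The 5 genes were bright in the in vitro-derived channel and dim, yet above background, in the thymic channel. On the brightest probe of each gene, all 4 spots were well above background in both channels, and none was saturated or marked by the scanner. Signals below are mean spot brightness in scanner units before correction, and the local background of these spots lay between 22.0 and 57.5 units. Before correction the dyes are not on one scale. The brightest probe of Myo5a, another myosin, gave Cy5 signals of 980 to 1072 and Cy3 signals of 487 to 625, yet a log2 ratio of -0.40. Since the ratio chose the 5 genes, nothing is read from Cy5 and Cy3 signals that do not overlap. Ratios are log2 values after background correction and loess, a dye correction that follows brightness.

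**Figure D1:**
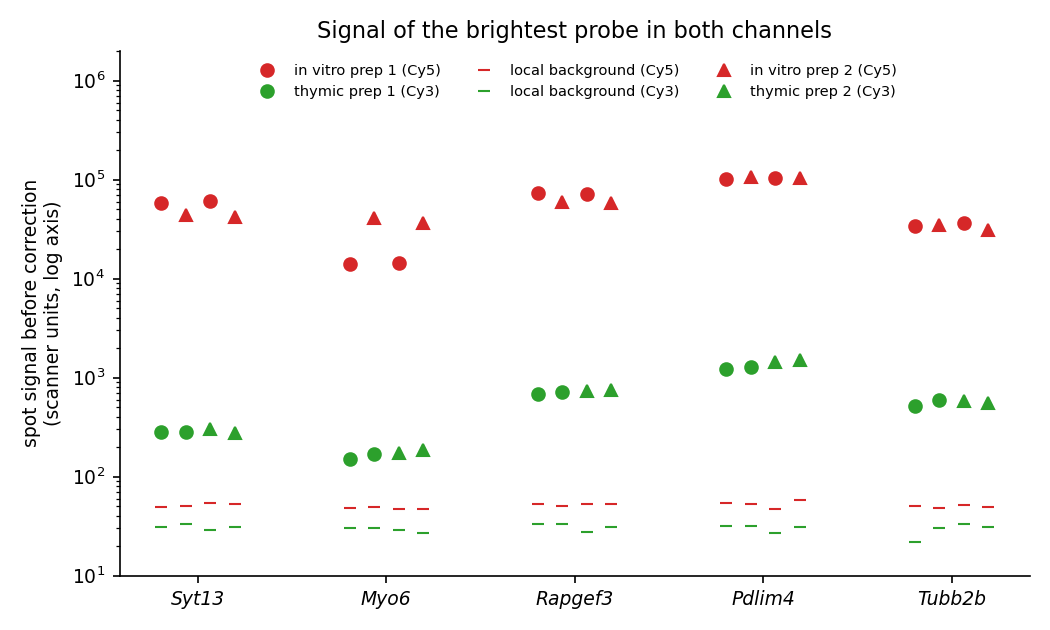
Mean spot signal before correction (scanner units, log axis) of the brightest probe of each gene, with arrays 1 to 4 from left to right within a gene. Red symbols are in vitro-derived preps (Cy5), green symbols thymic preps (Cy3), circles prep 1, triangles prep 2 and dashes the local background. Every red symbol lies above every green symbol of the same gene, but the genes were chosen by this ratio and the dyes are not on one scale. The Myo6 in vitro preps lie apart, at 14080 and 14352 against 41288 and 36333 units.

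Syt13 had the largest ratio of the 5. Its probe A_52_P253044 (chr2:92806377-92806436, + strand, as the array design gives it, with no build stated) gave Cy5 signals of 58652 and 60930 with in vitro prep 1 and of 44176 and 41715 with prep 2. The thymic signals were 283 and 280 for prep 1 and 302 and 279 for prep 2. Prep 1 was the higher in vitro prep against either thymic partner. The log2 ratios were 6.07, 5.74, 6.22 and 5.78 on arrays 1 to 4, with a mean of 5.95 ± 0.14 (limma SE, n = 2 preps of each kind), or 61.9-fold.

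Myo6, the actin motor, stood at 48.1-fold and was the gene of the 5 whose in vitro preps lay furthest apart. Probe A_52_P565427 (chr9:80385712-80385771, + strand) gave Cy5 signals of 14080 and 14352 with in vitro prep 1 and of 41288 and 36333 with prep 2. The thymic signals were 151, 170, 174 and 184 on arrays 1 to 4. The in vitro values formed a lower and a higher pair by prep. The log2 ratios were 4.94, 6.32, 4.96 and 6.14, with a mean of 5.59 ± 0.41 (limma SE, n = 2 preps of each kind). The mean was 4.95 without in vitro prep 2 and 6.23 without in vitro prep 1.

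Rapgef3, the cAMP sensor, had a single probe, A_51_P116906 (chr15:97745568-97745627, - strand). Its Cy5 signals were 73369 and 70816 with in vitro prep 1 and 59627 and 58151 with prep 2. The thymic signals were 684, 710, 730 and 749 on arrays 1 to 4. The in vitro preps did not overlap, and prep 1 was higher on both arrays. Log2 ratios of 5.11, 4.79, 5.14 and 4.79 gave a mean of 4.96 ± 0.12 (limma SE, n = 2 preps of each kind), or 31.0-fold.

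Pdlim4 and Tubb2b varied less from array to array. Pdlim4 probe A_51_P470432 (chr11:54011782-54011841, - strand) gave Cy5 signals of 100782, 105756, 103385 and 103002, and thymic signals of 1211, 1292, 1445 and 1517. The signals of the in vitro preps overlapped. Its log2 ratios of 4.68, 4.65, 4.64 and 4.49 gave a mean of 4.62 ± 0.07 (limma SE, n = 2 preps of each kind), or 24.6-fold. Tubb2b probe A_51_P514256 (chr13:33544738-33544797, - strand) gave Cy5 signals of 34256, 35017, 36808 and 31066, and thymic signals of 518, 600, 578 and 553. Here too the signals of the in vitro preps overlapped. The ratios, in contrast, were higher with in vitro prep 1 (4.44 and 4.60) than with prep 2 (4.31 and 4.38). The Tubb2b log2 ratios of 4.44, 4.31, 4.60 and 4.38 gave a mean of 4.43 ± 0.09 (limma SE, n = 2 preps of each kind), or 21.6-fold.

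All 5 genes were called higher in the in vitro-derived cells by the fit across all genes, where 26.7% of the 19162 genes were called higher. Since this ratio chose the genes, nothing is read from that count. Their median log2 difference was 4.96, beside 0.03 for all genes. In bulk RNA, fewer cells of a type and less RNA per cell cannot be told apart. Scaling each array by its median in place of loess moved the median of all genes to 0.41, and relative to that median the log2 differences were 6.27 for Syt13, 5.84 for Myo6, 5.36 for Rapgef3, 5.12 for Pdlim4 and 4.77 for Tubb2b.

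The RefSeq promoter table (build GRCm38.p6) held Myo6, Rapgef3 and Pdlim4, which is 3 of the 5 genes. Their 250 bases before the gene start are shown as the sequence next to the start of these genes. They are written 5′ to 3′ along the gene, for Myo6 at chr9:80164784-80165033 (+ strand), Rapgef3 at chr15:97767667-97767916 (- strand) and Pdlim4 at chr11:54069018-54069267 (- strand). Capitals mark the GC box, GGGCGG on either strand.
Myo6: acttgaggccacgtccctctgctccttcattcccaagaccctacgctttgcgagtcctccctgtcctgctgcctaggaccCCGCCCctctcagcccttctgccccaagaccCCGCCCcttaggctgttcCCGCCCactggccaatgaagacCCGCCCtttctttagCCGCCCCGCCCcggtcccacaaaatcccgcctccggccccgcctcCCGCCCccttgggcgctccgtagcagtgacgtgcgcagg
Rapgef3: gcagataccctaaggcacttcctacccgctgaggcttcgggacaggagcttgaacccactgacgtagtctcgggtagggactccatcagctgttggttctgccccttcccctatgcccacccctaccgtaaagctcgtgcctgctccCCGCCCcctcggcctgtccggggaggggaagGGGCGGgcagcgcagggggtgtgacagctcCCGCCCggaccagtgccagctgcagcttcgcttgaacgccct
Pdlim4: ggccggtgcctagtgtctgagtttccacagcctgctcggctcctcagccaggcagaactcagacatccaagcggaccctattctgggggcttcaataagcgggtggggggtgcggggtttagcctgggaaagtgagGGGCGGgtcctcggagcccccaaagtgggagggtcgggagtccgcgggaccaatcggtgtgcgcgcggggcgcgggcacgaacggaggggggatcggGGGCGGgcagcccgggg
The GC box was matched 7 times in the Myo6 window, where a pair of matches overlap, 3 times in that of Rapgef3 and 2 times in that of Pdlim4. Of all 32851 promoter windows of this length, 32.7% held at least 1 match. The windows were GC-rich, with 67.6% G and C for Myo6, 66.0% for Rapgef3 and 69.2% for Pdlim4, beside a median of 52.4% over all windows. The letters TGACG, the cAMP response element core, were found on either strand 1 time each in the windows of Myo6 and Rapgef3, the cAMP-binding factor, and 0 times in that of Pdlim4, with a match in 17.8% of all windows. The E-box, CANNTG, which reads the same on both strands, was matched 2 times for Rapgef3 and 0 times for Myo6 and Pdlim4, with a match in 66.2% of all windows. The TATA box letters TATAAA were found 0 times in the 3 windows on either strand, and in 12.4% of all windows.

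Of the 9 probes, 8 were tested, and the further probes of Syt13, Myo6 and Pdlim4 gave smaller ratios than the brightest ones. The second Syt13 probe, A_51_P503671 (chr2:92791550-92791609), lies 14827 bp towards the 5′ end. Its Cy5 signals were 1010 and 964 with in vitro prep 1 and 719 and 707 with prep 2, and its thymic signals were 119, 107, 122 and 118 on arrays 1 to 4. The in vitro preps kept the order of the brightest probe. Its log2 ratios were 1.64, 1.39, 1.68 and 1.35, with a mean of 1.52, or 2.86-fold.

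The second Myo6 probe, A_51_P472970 (chr9:80384747-80384803), sits 966.5 bp from the brightest one, counted between probe centres. Its Cy5 signals were 1451 and 1472 with in vitro prep 1 and 4610 and 4060 with prep 2, against thymic signals of 61.9, 91.3, 66.4 and 80.6. It showed the same lower and higher pair by in vitro prep. Its log2 ratios ran from 2.84 on array 1 to 4.14 on array 2 and 4.16 on array 4, with a mean of 3.54, or 11.6-fold. The third Myo6 probe, A_52_P564653, lies 26659 bp from the brightest, and its design coordinates span chr9:80358206-80359959, longer than a probe. It was well above background on 1 array in Cy5 and on 0 arrays in Cy3, so it was not tested and gives no fold.

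The second Pdlim4 probe, A_52_P518305 (chr11:54016195-54016254), lies 4413 bp towards the 5′ end. Its Cy5 signals were 1536, 1616, 1468 and 1656 and its thymic signals 85.7, 84.0, 87.7 and 96.2. The in vitro preps differed little. Its log2 ratios were 2.61, 2.84, 2.72 and 2.73, with a mean of 2.73, or 6.62-fold. Averaging the tested probes in place of taking the brightest gave log2 differences of 3.73 for Syt13, 4.56 for Myo6 and 3.67 for Pdlim4, each still in the same direction.

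**Figure D2:**
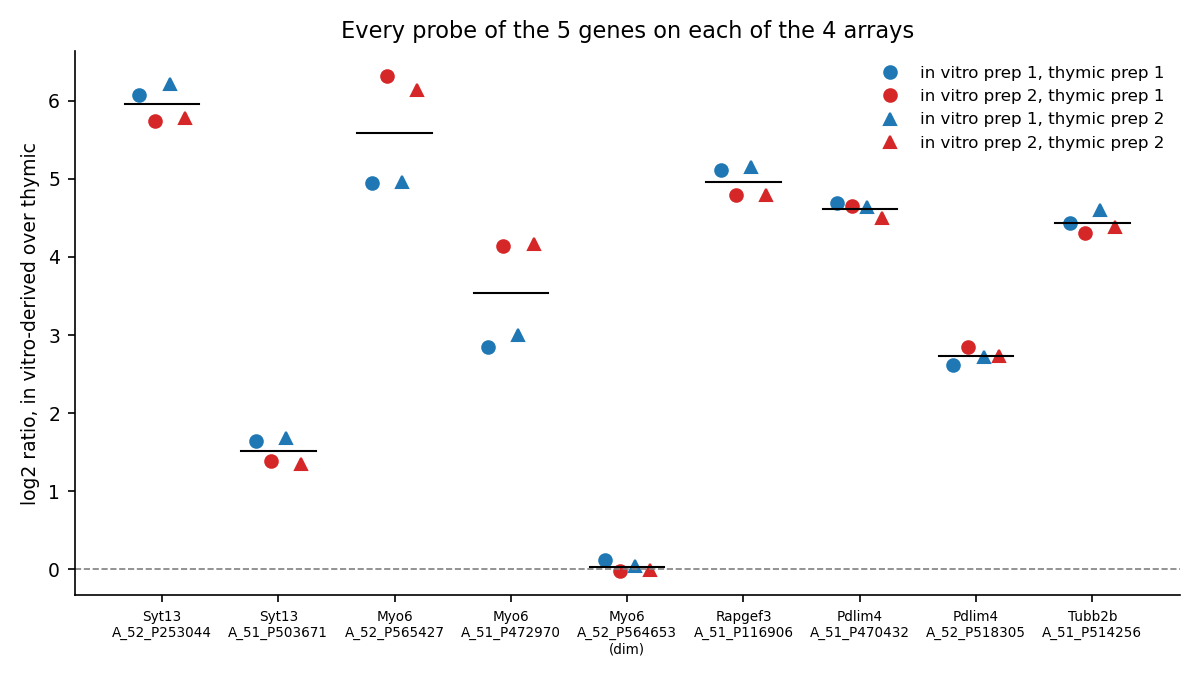
Log2 ratio of in vitro-derived over thymic cells for each of the 9 probes on the 4 arrays. Blue symbols are in vitro prep 1, red symbols prep 2, circles thymic prep 1, triangles thymic prep 2, and the black line is the mean. The 8 tested probes lie above 0 on every array, the 2 tested Myo6 probes split by in vitro prep, and the dim Myo6 probe lies near 0.

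In these 3 genes the probe nearest the 3′ end had the larger ratio, by a median of 2.05 on the log2 scale. The RNA had been amplified with a T7-based linear method, starting from 1 µg. Over the 4855 genes with tested probes at least 500 bp apart, the 3′ probe had the higher ratio in 56.4%. Among the 102 such genes called at least 4-fold higher, it had the higher ratio in 88.2%. Among the 65 called at least 4-fold lower, the 3′ probe was the one further from 0 in 72.3%, beside 61.1% over all 4855. Both sets were picked by the ratio of the brightest probe alone. Where that probe is the 3′ one, the choice itself favours it, so these shares cannot be read as a position effect. The brightest probe stands for a gene here, and the dimmer 5′ probes are also more compressed by the offset added before logs. With the scanner's own corrected signals the second probes gave 1.93 for Syt13, 4.79 for Myo6 and 3.56 for Pdlim4, and the brightest ones 6.24, 6.10 and 4.69. The part of probe brightness and position in the size of these ratios was not tested.

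**Figure D3:**
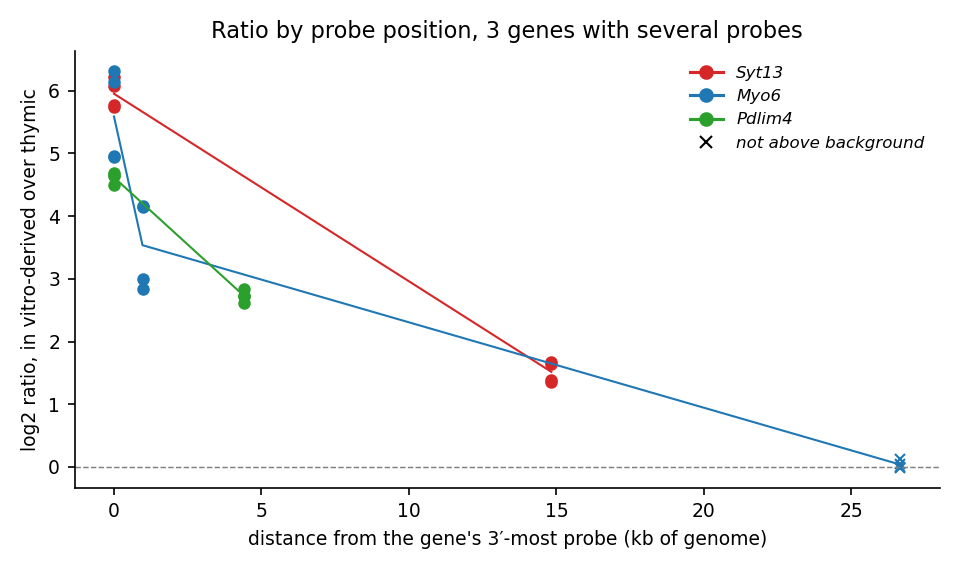
Log2 ratio of in vitro-derived over thymic cells against the distance from the gene's 3′-most probe (kb of genome, introns included) for Syt13, Myo6 and Pdlim4. Points are the 4 arrays, lines join the probe means, and crosses are the Myo6 probe that is not above background. Every gene has its highest mean at the 3′-most probe, 5.95, 5.59 and 4.62.

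The preps of one kind were then compared, a difference that the choice of the genes did not rest on. It is 1 prep against 1 prep, measured against each of 2 partners, so it has no test. Myo6 was 2.43-fold higher in in vitro prep 2 than in prep 1 (log2 difference 1.28), with 1.38 against thymic prep 1 and 1.18 against thymic prep 2. Its second probe gave 1.30 and 1.16. Only 12 of the 19162 genes, 0.0626%, had a larger difference between the in vitro preps. On their brightest probes the other 4 genes went the opposite way and were higher in prep 1. Syt13 was 1.30-fold higher there (-0.33 and -0.44 against the thymic partners) and its second probe 1.23-fold, while Rapgef3 was 1.26-fold higher (-0.32 and -0.36). Tubb2b was 1.13-fold higher (-0.13 and -0.22) and Pdlim4 1.07-fold (-0.04 and -0.15). The second Pdlim4 probe went the other way, higher in prep 2 (0.23 and 0.004). So did the log2 level per channel of the brightest Pdlim4 probe (15.82 in prep 1 and 15.88 in prep 2).

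The median size of this in vitro difference was 0.34 over the 5 genes and 0.10 over all genes, where 95% were under 0.40. The thymic preps were closer, with a median of 0.09 for the 5 genes and 0.05 for all genes, and Tubb2b had the largest at -0.12 (prep 2 minus prep 1). With the background model fitted on all spots, the in vitro difference was 1.75 for Myo6, -0.08 for Syt13 and 0.03 for Tubb2b.

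**Figure D4:**
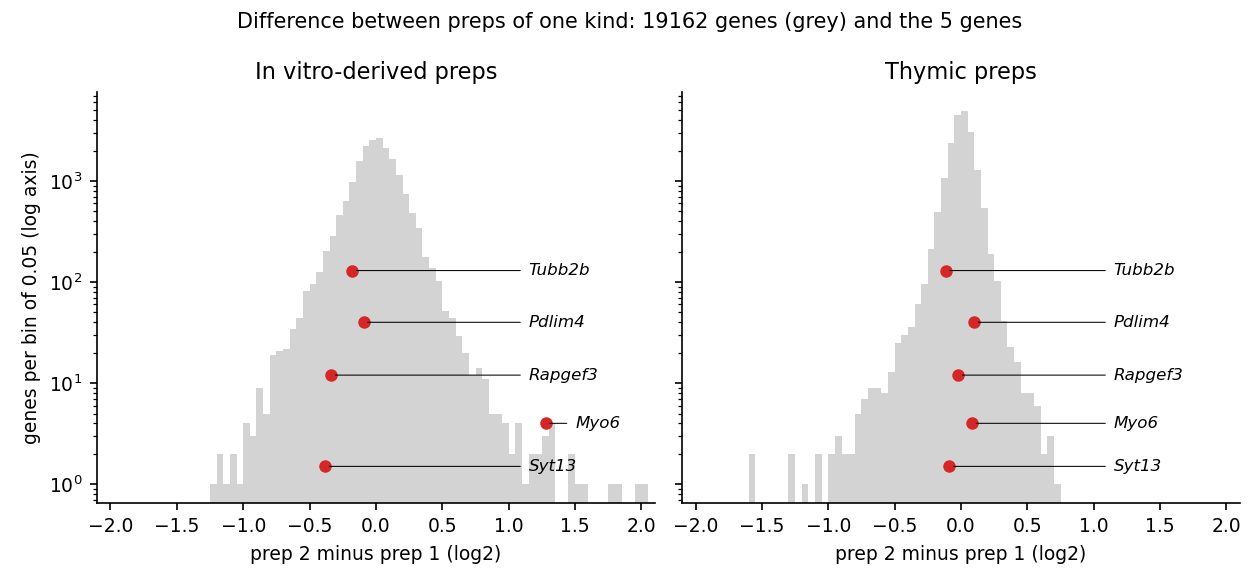
Difference between prep 2 and prep 1 (log2) within the in vitro-derived cells, left, and within the thymic cells, right. Grey bars count all 19162 genes in bins of 0.05 on a log axis. Red points mark the 5 genes along the horizontal axis, at heights that carry no value. Myo6 lies far to the right at 1.28 among the in vitro preps, and all 5 genes lie between -0.12 and 0.10 among the thymic preps.

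The 12 genes with a larger in vitro prep difference than Myo6, singled out after their values were seen, were all higher in prep 2. They were Asns, which makes asparagine, Trib3, a pseudokinase, Khdc1a, Drc1, Slc7a3 and Slc6a9, transporters of cationic amino acids and of glycine, Gzmb, a cytotoxic granule protease, Ccl5, a chemokine, Chac1, which breaks down glutathione, Xlr, 2300002D11Rik and Atf5, a stress-responsive transcription factor. Their differences ran from 1.33 for Atf5 to 2.01 for Asns. Of the 12, 3 were also called between the kinds of cell: Asns (log2 difference 3.38 ± 0.64, limma SE, adjusted p = 0.00891) and Khdc1a (2.62 ± 0.57, adjusted p = 0.0149) higher in the cultured cells, and Ccl5 lower (-2.19 ± 0.47, adjusted p = 0.0137). In all, 26 genes were at least 2-fold higher in in vitro prep 2 and 7 in prep 1.

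Marker lists of other cell types also differed between the preps, as whole lists. The double-positive thymocyte markers had 7 of 8 genes tested, of which 5 were called higher in the cultured cells and 0 lower (median 3.95). By the split of the log ratios, all 7 were higher in in vitro prep 1 than in prep 2, and so were all 8 CD8 T cell markers (medians of prep 2 minus prep 1 -0.33 and -0.20). The brightest probes of Syt13, Rapgef3, Pdlim4 and Tubb2b went the same way. The log2 levels per channel went the other way for Aqp11 (13.96 in in vitro prep 1 and 14.07 in prep 2) and for Pdlim4 (15.82 and 15.88). Over all genes, 51.0% were higher in prep 2. The double-positive markers had summed levels of 263723 and 224474 against 15906 and 16615 in the thymic preps. Of the stroma markers 15 of 18 were tested, with 12 called higher and 1 lower (median 1.41), where 26.7% and 25.4% of all genes were. Of the 15, 11 were higher in in vitro prep 2, as Myo6 was. Their summed levels were 152470 and 133248 in the in vitro preps and 85515 and 83829 in the thymic ones, of which Thy1, a surface protein that T cells also carry, made up 124432 and 102766, and 57689 and 55224. Without Thy1, left out after its values were seen, the other 14 summed to 28038 and 30483 in the in vitro preps and to 27827 and 28605 in the thymic ones. Acta2, the 1 marker called lower (-0.91), weighed most in these sums. Its log2 level, the highest of the 14, was 13.6 in both in vitro preps and 14.5 in both thymic ones. The Acta2 call was lost with the mean over probes (-0.06). The largest differences of the stroma list were those of Pdgfrb (4.69 ± 0.06, limma SE, adjusted p = 1.78e-05), Col1a1 (3.71 ± 0.09, adjusted p = 2.72e-05), Cxcl12 (3.46), Col1a2 (2.94) and Col3a1 (2.89). All of these were well above background in Cy5 on all 4 arrays. Pdgfra, Lum and Dcn were not above background on all arrays in either channel. The early progenitor markers had 8 of 10 tested, with 5 higher and 1 lower, and 6 of the 8 were higher in in vitro prep 2. The neuronal and endocrine list had 2 of 8 genes tested, Chga and Chgb. Syp, Snap25, Stmn2, Map2, Dcx and Nefl did not pass the filter. The part of other cell types in the values of the 5 genes was not tested.

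Few B lineage (0 higher and 1 lower of 6 tested) and erythroid markers (0 and 1 of 4) were called. The same held for thymic epithelial markers (1 and 1 of 6). These lists had 16.7%, 25% and 33.3% called, beside 52.1% of all genes in either direction. Of the myeloid markers 77.8% were called (3 and 4 of 9) and of the natural killer markers 75% (1 and 2 of 4), in both directions.

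The genes with the nearest pattern to each of the 5, by Euclidean distance over the 4 array log2 ratios, came from the top of the same order. For Syt13 they were Gzma at a distance of 0.20, Dntt at 0.28 and Arpp21 at 0.69. For Rapgef3 they were Endou (0.16), Tspan2 (0.19) and Tcrg (0.36), and for Pdlim4 Pdgfrb (0.26), Tcrg (0.43) and Strip2 (0.47). Tubb2b lay nearest to Strip2 (0.35), Rag1 (0.43) and Prssl1 (0.52). For Myo6 the nearest were Arpp21 at 1.63, Gzma at 1.71 and Myl10 at 1.84, further off than those of the others. The distance includes the size of the ratio, which chose the 5 genes, so no shared pattern is read from these neighbours.

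The relatives and partners of the 5 genes did not move as a block. Of 127 tested genes in 6 lists of related families, listed for this work without the 5 genes, 76 were called, 37 higher and 39 lower, which is 59.8%, beside 52.1% of all genes called in either direction. Their median log2 difference was -0.01. Without thymic prep 2, 50 of the 127 were called, and the number called over all genes fell from 9978 to 5780, or to 6070 without thymic prep 1. Of the calls over all genes 51.3% were higher, and 85.6% when arrays were scaled by their median. Under that scaling 11847 of the 19162 genes were called higher and 1996 lower, with a median of 0.41. The counts and values of the lists so scaled, given below, are to be set beside these.

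**Figure D5:**
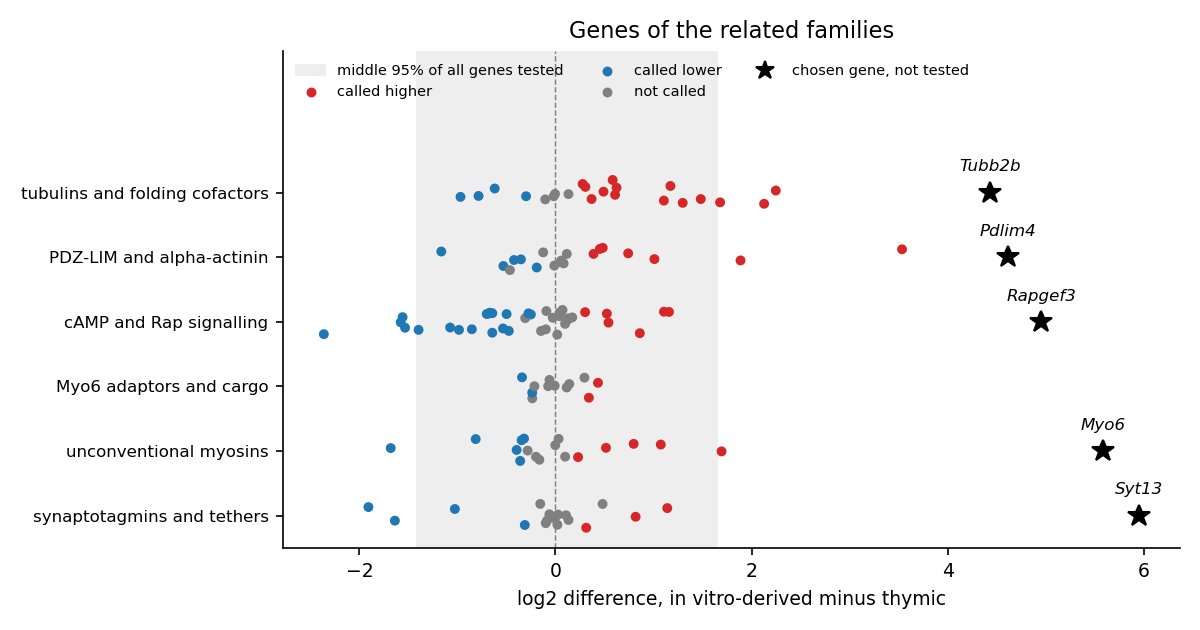
Log2 difference of in vitro-derived minus thymic cells for the tested genes of 6 related lists, 1 point a gene, in red where called higher, blue where called lower and grey where not called. Stars are the 5 chosen genes, and the band holds the middle 95% of all genes tested, from -1.41 to 1.65. Each star lies to the right of every gene of its list, with Ptpn13 (3.53) the nearest. The 5 genes were chosen by this value, so nothing is read from their place. A Tubb2a probe that does not stand for its gene, and is not drawn, gave 4.08.

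Among synaptotagmins and related tethers, 19 of 27 listed genes were tested, with 3 called higher and 4 lower (median -0.01). Syt11, which acts in vesicle and phagosome traffic, was 3.75-fold lower (log2 difference -1.91 ± 0.06, limma SE, adjusted p = 4.27e-05), while its other 4 tested probes gave -1.18, -0.42, -0.11 and -0.07. Sytl2, a Rab27 effector of secretory granules, was 3.11-fold lower and its relative Sytl1 2.20-fold higher. Esyt1, a tether between endoplasmic reticulum and plasma membrane, was 2.04-fold lower, a call lost (-0.08, adjusted p = 0.506 in limma) when arrays were scaled by their median. Syt7, the listed paralogue of Syt13, had a log2 difference of -0.09 ± 0.06 and was not called (adjusted p = 0.322 in limma).

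Of 17 tested unconventional myosins, of 22 listed, 5 were called higher and 6 lower (median -0.16), and 11 and 1 with arrays scaled by their median. Myo1c, a motor of membrane tension and recycling, was 2.11-fold higher (1.07 ± 0.10, limma SE, adjusted p = 0.000711). Myo1g, a membrane-bound myosin of lymphocytes, was 1.76-fold lower (-0.81 ± 0.07). With arrays scaled by their median Myo1g was called higher (0.39), where the median of all genes was 0.41. Myo1e was 3.24-fold higher on its brightest probe (1.69), while another of its probes gave -0.20, and with the scanner's own signals, where that probe was the brightest, the gene stood at -0.38. Myo18b was at least 2.97-fold lower (adjusted p = 7.5e-05 in limma) on a probe not well above background in Cy5, and its other probe gave -0.06. Myo5a, the listed paralogue of Myo6 and an organelle motor, was 1.32-fold lower (-0.40, adjusted p = 0.00656 in limma), and its other probe gave 0.22. The Myo5a value turned to 0.15 with arrays scaled by their median, and its call was lost with the mean over probes (adjusted p = 0.297 in limma) and without thymic prep 2 (0.0919).

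The adaptors and cargo proteins of Myo6 moved little. Of 12 tested, of 13 listed, 2 were called higher and 2 lower (median -0.03), and 8 and 1 with arrays scaled by their median. Tax1bp1, an autophagy receptor, was 1.35-fold higher (0.43 ± 0.07, limma SE, adjusted p = 0.00531) and Calcoco1 1.27-fold higher. Lmtk2, a membrane kinase, was 1.27-fold lower, and Tom1l2, an endosomal adaptor, 1.18-fold lower, both of which turned sign (0.19 and 0.39) with arrays scaled by their median. The other Lmtk2 probe gave 0.05 and the other Tom1l2 probes 0.35 and 0.13, and with the mean over probes Lmtk2 lost its call (-0.14) and Tom1l2 stood at 0.08. All 4 calls were lost without thymic prep 2, with adjusted p from 0.0658 to 0.296 in limma, and those of Lmtk2, Calcoco1 and Tom1l2 also without thymic prep 1.

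Most called genes of cAMP and Rap signalling, the pathway of Rapgef3, were lower in the in vitro-derived cells. Of 38 tested, of 42 listed, 6 were called higher and 18 lower (median -0.20), beside 25.4% of all genes called lower. With arrays scaled by their median 20 were called higher and 8 lower, and the median of the list, 0.30, lay below that of all genes, 0.41. Pde4b, which breaks down cAMP, was 5.14-fold lower (-2.36 ± 0.14, limma SE, adjusted p = 0.000228), while its other tested probes gave -0.39 and -0.43. Adcy7, which makes cAMP, was 2.99-fold lower, and Sipa1, which switches Rap1 off, 2.90-fold lower. Rapgef4, or Epac2, the paralogue of Rapgef3 and likewise a cAMP sensor, was 2.95-fold lower (-1.56 ± 0.06, adjusted p = 7.5e-05 in limma), with its probe above background on 3 of 4 arrays in Cy5. A further probe, listed on the array as 6330581N18Rik, an earlier symbol of Rapgef4, gave -3.53 (11.5-fold lower, adjusted p = 1.96e-05 in limma), and 1 more was not above background. The 2 cAMP-binding exchange factors of Rap had opposite directions in these preps.

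Of 19 tested genes with PDZ or LIM domains and alpha-actinins, 7 were called higher and 5 lower (median 0.06), and 13 and 0 with arrays scaled by their median. Ptpn13, a phosphatase with PDZ domains, was 11.6-fold higher (3.53 ± 0.16, limma SE, adjusted p = 0.000104) on its brightest probe. Another Ptpn13 probe, not above background in Cy3, gave 0.34. Lmo7 was at least 3.70-fold higher (adjusted p = 6.32e-05 in limma), with the thymic channel not well above background on any array. Zyx, a focal adhesion protein, was 2.24-fold lower (-1.16 ± 0.10), a call lost with arrays scaled by their median (-0.12). Fhl1 had a log2 difference of 1.01 and was called higher, with its thymic signal above background on 1 of 4 arrays, so that no fold is given. This call was lost with the background model fitted on all spots (adjusted p = 0.0716 in limma). Pdlim3, the listed paralogue of Pdlim4, had a log2 difference of 0.06 ± 0.06 and was not called (adjusted p = 0.452 in limma).

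Tubulins and their folding cofactors were mostly higher. Of 22 tested, of 23 listed, 14 were called higher and 4 lower (median 0.43), where 26.7% and 25.4% of all genes were, and 19 and 2 with arrays scaled by their median. Tube1, or epsilon-tubulin, a centriole protein, was 4.75-fold higher (2.25 ± 0.07, limma SE, adjusted p = 4.79e-05), and its other probe gave 1.25. Tubb5, a beta-tubulin of most dividing cells, was 3.20-fold higher and Tuba8, an alpha-tubulin, 2.79-fold higher. Tubb2a, the near-identical paralogue of Tubb2b, was 4.37-fold higher on its brightest probe (2.13 ± 0.07, adjusted p = 4.33e-05 in limma). That probe lists transcripts of 4 genes, Tubb2a, Tubb2b, Tubb3 and Tubb6, so its value cannot be given to 1 of them. The other Tubb2a probes gave log2 differences of 4.08 (17.0-fold) and 1.67 (3.17-fold), the first nearer the 3′ end, where its Cy5 signals were 113192 and 115617 with in vitro prep 1 and 94732 and 89814 with prep 2. How far the Tubb2b probe also binds Tubb2a RNA was not tested.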

How the data were processed

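The 4 arrays are Agilent 2-colour arrays on 1 slide, read per the file headers with Feature Extraction 9.5.1.1. The deposited scanner files hold spot intensity in both channels, and the series table holds the log10 ratios that the authors deposited, checked against the scanner files. No build is stated for the design coordinates. A background model (normexp, limma 3.58.1, R 4.3.3) was fitted without the 196 to 262 spots an array that the scanner marked, with an offset of 50, followed by loess within each array, which gave log2 ratios from the deposited signals. Of 41174 probes, 27236 passed the filter, a signal the scanner calls well above background in Cy5 or in Cy3 on every array, and the brightest probe stood for each of 19162 genes. Accessions matched 22951 probes to RefSeq symbols. Each array ratio was split by least squares into 2 in vitro-derived and 2 thymic prep values, and lmFit and eBayes were run on them (2 residual and 3.04 prior degrees of freedom). A gene was called at a Benjamini-Hochberg adjusted p under 0.05. A fold is "at least" where a probe was not well above background in 1 channel on any array, and was then taken against the lowest signal above background, per channel after Aquantile scaling. Levels are normalised signal per channel, and summed levels add them on the linear scale.

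The 5 genes, the family and marker lists and the tests were chosen with earlier results of these data known. Named besides the 5 genes were up to 4 called genes of each family with the largest differences, 1 listed paralogue each, and the 3 nearest patterns. The fit was tested on simulated data. Alternatives were the background model, the scanner's processed signals, an offset of 16, median centring, Aquantile, the mean over probes, a filter on both channels, keeping marked spots, the deposited log ratios, a block for prep number and leaving out each prep.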

Additional observations from a re-analysis of the deposited data

How the results depend on the processing

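Of 160 alternative values, 128 kept their direction and their side of the threshold or moved by less than 1 measure of spread. For the median of the 5 genes this was the SD over arrays, and for each gene the SE over preps. For prep differences it was the SD over the 2 thymic partners. Some values could not change, since Aquantile leaves the ratios as they are and the 5 genes pass the filter on both channels. The deposited log ratios gave nearly the values of the scanner's processed signals. The direction of the 5 genes' in vitro-thymic differences held under every alternative run. They were chosen by large values of this ratio on the same arrays, so nothing is read from that. The number of genes called was 9978, ran from 5780 to 9990 when 1 prep was left out, with 6070 without thymic prep 1, and was 13843 with median centring. The related family genes called were 76, and ran from 50 to 79 when 1 prep was left out. The median log2 difference of the 5 genes was 4.96. It was 5.09 with the scanner's processed signals and with the deposited log ratios, 5.77 with median centring and 4.43 with the mean over probes, and ran from 4.79 to 4.97 when 1 prep was left out. The median size of the in vitro prep difference, 0.34, was 0.075 with the background model fitted on all spots and 0.29 with median centring. Fitted on all spots, the model put the mean Cy5 background of array 3 at -878 units, and at -9.38 without the marked spots. The Tubb2b prep difference reversed to 0.028 with the background model fitted on all spots, and that of Pdlim4 to 0.011 with the mean over probes.

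The prep number as a replicate block gave 10279 calls over all genes and 79 in the related families. The in vitro and thymic prep differences correlated at r = 0.13 over genes, which are not independent, and 2 pairs share only a number. With 1 thymic prep left out, the lone prep is assumed to vary like the others. For the dimmer probes of Myo6 the thymic signal lay close to background, which limits their ratios.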
